A study of Homo sapiens with 12 samples.

Results

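The plasminogen activation system was described in MIA PaCa-2, a human pancreatic carcinoma cell line, through 9 genes: the activators PLAU and PLAT, the receptor PLAUR, the serpins SERPINE2, SERPINB2 and SERPINB8, and the plasminogen binding proteins ENO1, S100A10 and ANXA2. They were taken by symbol from a table of 63086 genes, and each symbol had 1 row. RNA was compared between 4 lines with 3 libraries each. WT cells were unmodified. CRISPR Control had gone through CRISPR-Cas9 editing and carried only a silent point mutation. TIMP1 KO 1 and TIMP1 KO 2 were clones edited at exon 4 of TIMP1, which encodes a secreted inhibitor of matrix metalloproteinases, and their guide RNAs targeted different regions of that exon. The KO lines are termed deficient below, and the other lines (WT, CRISPR Control) competent. All lines were grown in RPMI medium with 10% FCS without further treatment. Since each knockout is a single clone, an effect of the knockout and a trait of the clone cannot be told apart within a line.

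Plasminogen is a secreted zymogen made mainly by the liver. Urokinase (uPA, encoded by PLAU) and tissue-type plasminogen activator (tPA, encoded by PLAT) cut it to plasmin, a serine protease that degrades fibrin and matrix proteins and activates some metalloproteinases. The urokinase receptor (encoded by PLAUR) holds uPA at the cell membrane, and surface proteins with C-terminal lysines, such as enolase and the complex of annexin A2 with S100A10, hold plasminogen there. Serpins block the activators by forming covalent complexes with them, and carcinoma cells are known for strong expression of uPA.

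The libraries held 26908701 to 36093563 reads in genes. A normalised count is the number of reads of a gene divided by a size factor of its library, and the 3 reads that a count of 0 allows came to 2.49 to 3.56 normalised counts. That limit and the read numbers cover counting error only. TIMP1 itself ran from 3290 to 3837 in WT, from 2285 to 2959 in CRISPR Control, from 1562 to 1624 in KO 1 and from 1136 to 1192 in KO 2. Its transcript was thus lowered and not absent in the KO lines, by -1.15 on the log2 scale against WT in KO 1 (limma adjusted p 7.24e-09) and -1.61 in KO 2 (limma adjusted p 2.6e-11). It was also lower in CRISPR Control than in WT (-0.41, limma adjusted p 0.000769). The titles call the libraries of a line biological replicates, and p-values measure the spread between them, which may be partly technical where cultures were not separate. The fit shares 1 estimate of spread per gene over the 4 lines. Pairs of CRISPR Control libraries agreed least, with Pearson r of log2 values of 0.9896 to 0.9908. In the other lines r was 0.9914 to 0.9934. VIM, KRT8, KRT18, KRT19 and EPCAM, markers of this carcinoma line, had line means of 1299 to 135667 normalised counts and were present in every line, though not at equal levels. KRT8 was 3.27-fold and KRT18 3.22-fold lower in CRISPR Control than in WT. KRT19 was 3.46-fold lower in CRISPR Control, 1.57-fold higher in KO 1 and 3.33-fold higher in KO 2. All deficient libraries lay above all competent libraries in KRT19, and 24.7% of all tested genes were separated in 1 direction or the other. KRT18 was lower in KO 2 than in WT by -0.62 on the log2 scale (limma adjusted p 6.22e-06). So were EPCAM (-0.54, limma adjusted p 0.000149) and KRT8 (-0.43, limma adjusted p 0.000492) in KO 2. VIM was higher than WT in KO 1 (0.40, limma adjusted p 0.00101) and lower in CRISPR Control (-0.28, limma adjusted p 0.00899). The 9 markers of leukocytes, endothelium and fibroblasts summed to 32.4 to 38.2 normalised counts in the WT libraries, 44.3 to 52.1 in KO 1, 72.1 to 101.7 in KO 2 and 77.1 to 107.1 in CRISPR Control. PDGFRB, the 1 of them high enough to be tested, had a line mean of 53.7 at most and was higher than WT by 1.19 on the log2 scale in KO 1 (limma adjusted p 0.00979), by 1.69 in KO 2 (limma adjusted p 0.00032) and by 1.89 in CRISPR Control (limma adjusted p 0.00012). Of the 9 markers, 3 had no read in WT, 4 in KO 1, 1 in KO 2 and 1 in CRISPR Control. The part of all these markers in the results was not tested.

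The stretches before annotated starts are shown for PLAU and SERPINB8, which differed between deficient and competent libraries, for SERPINE2, whose lines stood farthest apart, and for SERPINB2, which lies close to SERPINB8 and had almost no reads. They come from RefSeq's promoter table (GRCh38.p14), 5′ to 3′ on the strand of the gene. Capitals mark matches on either strand to the AP-1 string TGANTCA, the TATA box TATAAA, the GC box GGGCGG and the E-box CACGTG. Bases inside annotated exons of the gene itself were cut off, except in a window of 30 bases.
PLAU, chr10:73910882-73911103, plus strand: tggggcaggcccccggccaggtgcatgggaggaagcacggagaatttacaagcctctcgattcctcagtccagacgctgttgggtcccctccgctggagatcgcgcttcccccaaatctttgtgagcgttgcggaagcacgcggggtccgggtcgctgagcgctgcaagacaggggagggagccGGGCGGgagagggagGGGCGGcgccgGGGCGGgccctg
SERPINE2, chr2:224031479-224031728, minus strand: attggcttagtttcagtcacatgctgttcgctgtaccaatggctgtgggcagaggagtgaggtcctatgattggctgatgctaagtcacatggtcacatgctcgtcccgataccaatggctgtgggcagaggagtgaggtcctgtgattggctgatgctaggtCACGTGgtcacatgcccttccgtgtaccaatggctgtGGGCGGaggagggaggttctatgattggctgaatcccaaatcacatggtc
SERPINB2, chr18:63887455-63887704, plus strand: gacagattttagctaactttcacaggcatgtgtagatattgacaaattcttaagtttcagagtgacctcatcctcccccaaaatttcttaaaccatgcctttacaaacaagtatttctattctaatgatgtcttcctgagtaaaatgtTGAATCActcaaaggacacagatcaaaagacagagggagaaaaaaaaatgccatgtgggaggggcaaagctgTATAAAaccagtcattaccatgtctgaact
SERPINB8, chr18:63969831-63970028, plus strand: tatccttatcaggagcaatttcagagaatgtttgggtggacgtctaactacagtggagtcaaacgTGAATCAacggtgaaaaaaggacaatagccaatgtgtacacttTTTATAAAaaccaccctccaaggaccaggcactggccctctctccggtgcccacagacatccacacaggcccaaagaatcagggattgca
SERPINB8, chr18:63970045-63970074, plus strand, inside an exon: aacggttcTGAGTCAtctgccggaagcctt

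Of 35116 promoters of 250 bases in the same table, 6.57% held the AP-1 string, 10.7% the TATA box, 42.6% the GC box and 6.34% the E-box. The promoter of SERPINB8 held 2 matches to the AP-1 string, 1 of them inside its first annotated exon. It also held 2 overlapping matches to the TATA box, 1 on each strand. The promoter of SERPINB2 held 1 AP-1 match and 1 TATA box. The stretch of PLAU held 3 GC boxes and the other PLAU start in the table no match to any of the strings. The stretch of SERPINE2 held 1 GC box and 1 E-box, and its other start 2 GC boxes. PLAUR held 1 AP-1 match and no other, S100A10 and ENO1 1 GC box each, and ANXA2 an AP-1 match, a TATA box and 3 GC boxes. The GC content was 37.2% before SERPINB2 and 49.2% before SERPINB8, against a median of 58% over all promoters. A match describes these letters only, and binding was not analysed here.

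The members differed widely in level. Levels between genes were compared as the normalised count per kilobase of summed exon length, ranked among 15908 tested genes with a length. That length sums all annotated exons of a gene, 11574 bases for ANXA2 and 1012 for S100A10, and a transcript need not hold them all. The order of genes thus depends on this measure. Undivided, the WT means were 70476 for ANXA2 and 10498 for S100A10. ENO1, the glycolytic enzyme enolase 1, had a mean level of 17366 per kilobase over the 12 libraries, which was rank 25. S100A10, a small protein that pairs with annexin A2, stood at 11743 (rank 51) and ANXA2, a membrane-binding annexin, at 6353 (rank 124). PLAU followed at 3375 per kilobase (rank 321). PLAUR was far lower at 62.1 (rank 9695), SERPINE2 at 17.3 (rank 12681) and SERPINB8 at 16.5 (rank 12769). PLAT, at 1.33 per kilobase (rank 15792), lay near the bottom of the tested genes. SERPINB2 had 1 read in KO 2 replicate 2 and 0 in the other 11 libraries. Of the activators the lines thus carried the transcript of uPA and very little of that of tPA, and the receptor transcript stood far below that of its ligand.

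**Figure D1:**
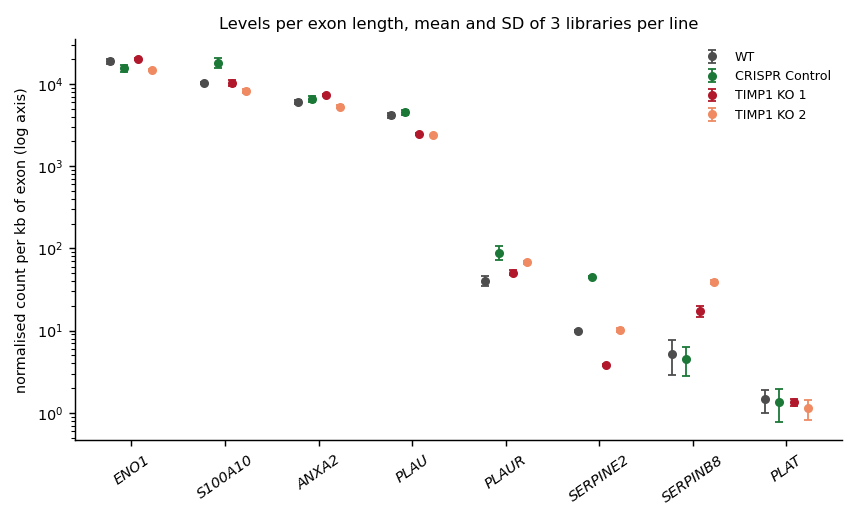
Mean normalised count per kilobase of exon (log axis, error bars SD, n = 3 libraries) of 8 members in each of the 4 lines. The lowest line mean of the plasminogen binding proteins and PLAU is 2375 (PLAU in KO 2), while the highest of PLAUR, SERPINE2, SERPINB8 and PLAT is 89.1 (PLAUR in CRISPR Control). SERPINB2, at or near 0, is not drawn.

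Each line was compared with WT and the others to describe which members differed between the KO lines and the competent lines. By limma on log2(normalised count + 1), with p-values adjusted by Benjamini-Hochberg over 15987 genes, 8 members could be tested and SERPINB2 could not. KO 1 and WT differed in 4 of the 8, of which 2 were higher in KO 1 and 2 lower, where 35.5% of all tested genes differed. KO 2 and WT differed in 6, of which 2 were higher in KO 2 and 4 lower, against 55% of all genes. CRISPR Control differed from WT in 4, 3 higher and 1 lower, against 53.4% of all genes. These comparisons share the WT libraries. KO 1 differed from CRISPR Control in 6 members (63% of all genes) and KO 2 in 6 (67.7% of all genes). KO 2 differed from KO 1 in 6, 3 in each direction, against 38.2% of all genes. Deficient and competent lines, taken as means of their pairs, differed in 4 members, against 65.9% of all genes. Of these PLAU, SERPINE2 and S100A10 were lower and SERPINB8 was higher in the mean of the deficient lines. SERPINE2 in KO 2 (0.05, limma adjusted p 0.788) and S100A10 in KO 1 (-0.02, limma adjusted p 0.863) were not called against WT. CRISPR Control lay above WT in both genes, by 2.18 for SERPINE2 and 0.80 for S100A10. The median log2 fold change of the 8 members relative to WT was 0.04 in KO 1, -0.26 in KO 2 and 0.12 in CRISPR Control. Over all tested genes it was 0.0032, -0.0084 and 0.013 in the same order.

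Genes were also sought that were called in each KO line with the same sign relative to WT and were not called in CRISPR Control. PLAU, which was lower, and SERPINB8, which was higher, met this rule, 2 of the 8 tested members against 10.2% of all tested genes. The same pair of members were those whose 6 deficient libraries all lay on 1 side of the 6 competent libraries, as was the case for 24.7% of all genes. The remaining 6 tested members overlapped between the deficient and the competent libraries.

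**Figure D2:**
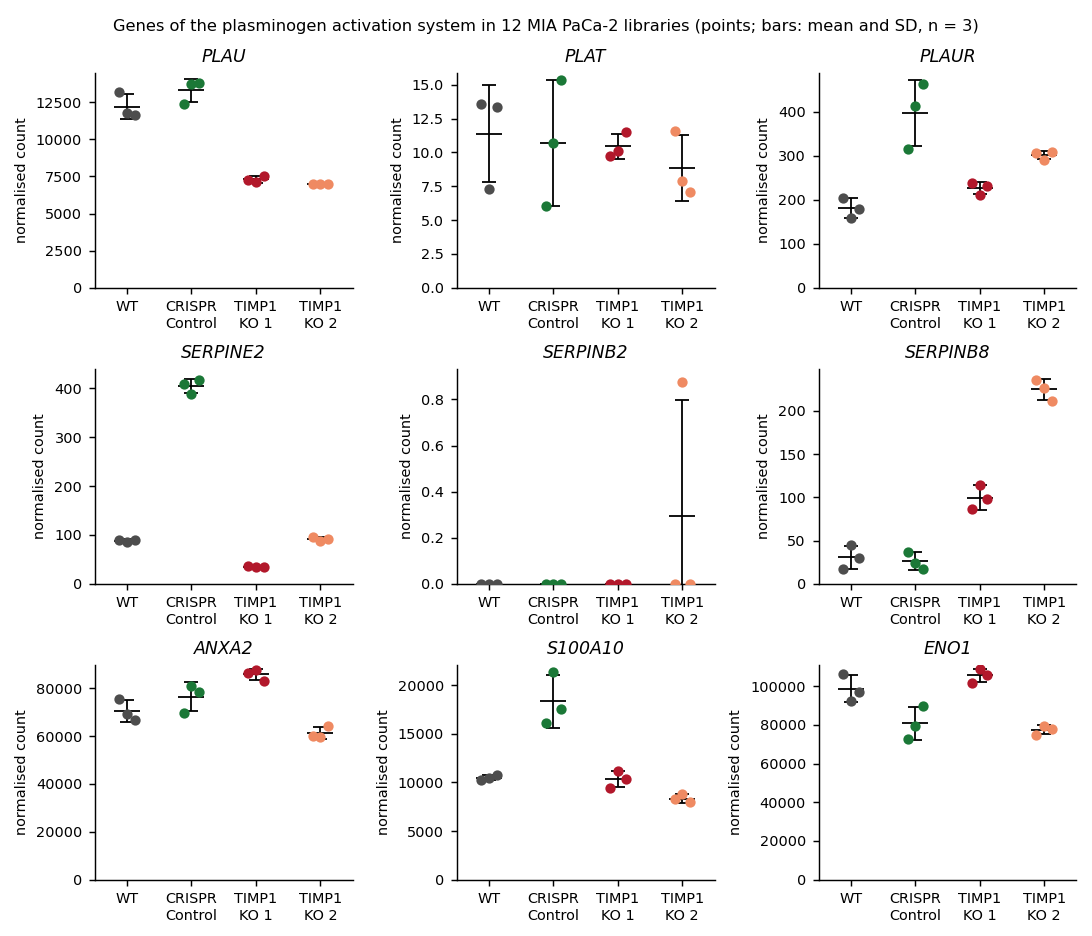
Normalised counts of the 9 members in the 12 libraries (points) of WT, CRISPR Control, TIMP1 KO 1 and TIMP1 KO 2, with mean and SD (n = 3) on linear axes from 0. PLAU is lower in the 6 KO libraries and SERPINB8 higher, while PLAUR, SERPINE2 and S100A10 are highest in CRISPR Control.

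PLAU, the gene of urokinase (ENSG00000122861.16, chromosome 10, 73909177 to 73917496, plus strand, GRCh38), was lower in both KO lines. Its normalised counts were 13198, 11802 and 11619 in WT and 12396, 13700 and 13832 in CRISPR Control. KO 1 had 7266, 7107 and 7521, and KO 2 had 7020, 6989 and 7000. The highest KO library thus lay well below the lowest competent library, and the KO 2 libraries were almost equal. Per kilobase of exon the level was 4139 ± 293 in WT and 4513 ± 269 in CRISPR Control, next to 2475 ± 70.9 in KO 1 and 2375 ± 5.26 in KO 2 (SD of 3 libraries, n = 3). Against WT the log2 fold change was -0.74 in KO 1 (SE 0.07, limma adjusted p 9.31e-08) and -0.80 in KO 2 (SE 0.07, limma adjusted p 1.31e-08), which is 1.67-fold lower in KO 1 and 1.74-fold lower in KO 2. CRISPR Control differed from WT by 0.13 (95% interval -0.02 to 0.27, limma adjusted p 0.133). Without WT replicate 1 this became 0.18 (limma adjusted p 0.0449) and without CRISPR Control replicate 1 0.18 (limma adjusted p 0.036), and PLAU then no longer met the rule of no difference in the control line. KO 2 and KO 1 differed by -0.06 (95% interval -0.20 to 0.08, limma adjusted p 0.532). Fewer transcripts per cell and fewer cells with the transcript cannot be told apart in such bulk RNA.

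C10orf55, a long noncoding RNA gene on the opposite strand, shares 915 exon bases with PLAU. The strand setting of the counting was not given in the sources used here. Its line means were 44.7 in WT and 24.8 in CRISPR Control, next to 25.1 in KO 1 and 28.5 in KO 2, far below the counts of PLAU in every line. Of 34 tested genes within 1 Mb of PLAU, C10orf55 among them, 3 were higher and 5 lower in KO 1 than in WT. For KO 2 there were 5 higher and 8 lower, and for CRISPR Control 5 higher and 6 lower. Of all tested genes 35.5% differed from WT in KO 1, 55% in KO 2 and 53.4% in CRISPR Control.

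PLAT, the gene of tPA (ENSG00000104368.19, chromosome 8, 42174718 to 42207709, minus strand), gave no call. Its normalised counts were 13.6, 7.27 and 13.3 in WT, 6.05, 10.7 and 15.4 in CRISPR Control, 9.72, 10.1 and 11.5 in KO 1 and 11.6, 7.89 and 7.06 in KO 2. All lines overlapped, and each line held 30 to 34 reads in its 3 libraries together. The log2 fold change against WT was -0.07 in KO 1 (95% interval -0.93 to 0.79), -0.31 in KO 2 (95% interval -1.17 to 0.55) and -0.12 in CRISPR Control (95% interval -0.98 to 0.74). Differences inside these intervals were not detectable at this depth.

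PLAUR, the gene of the urokinase receptor (ENSG00000011422.12, chromosome 19, 43646095 to 43670547, minus strand), was highest in CRISPR Control. Its normalised counts were 204, 158 and 180.0 in WT, 239, 212 and 231 in KO 1, 307, 291 and 309 in KO 2 and 316, 413 and 463 in CRISPR Control. WT was lowest and no library of KO 1 reached KO 2, whose libraries all lay under those of CRISPR Control. Against WT, PLAUR was higher by 1.12 on the log2 scale in CRISPR Control (SE 0.14, limma adjusted p 1.45e-06) and by 0.75 in KO 2 (SE 0.14, limma adjusted p 0.000137). In KO 1 the difference from WT was 0.33 (95% interval 0.05 to 0.62, limma adjusted p 0.0643), and it passed the threshold without WT replicate 1 (0.42, limma adjusted p 0.0408), CRISPR Control replicate 1 (limma adjusted p 0.0293) or CRISPR Control replicate 3 (limma adjusted p 0.0464). Without either CRISPR Control library the difference stayed 0.33, and what changed was the estimate of spread that the lines share. Deficient and competent lines differed in PLAUR by -0.02 (95% interval -0.22 to 0.18).

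KO 2 lay above KO 1 in PLAUR by 0.41 (limma adjusted p 0.0225) and below CRISPR Control by -0.38 (limma adjusted p 0.0204). The former call was lost without KO 1 replicate 2 (adjusted p 0.0841), KO 2 replicate 1 (adjusted p 0.0563) or KO 2 replicate 3 (adjusted p 0.0597) in limma. The latter was lost without CRISPR Control replicate 2 (adjusted p 0.0596) or 3 (adjusted p 0.119) or KO 2 replicate 2 (adjusted p 0.0637) in limma. Scaling to equal library totals also ended the latter call (limma adjusted p 0.0833) and quantile normalization the former (limma adjusted p 0.0854).

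SERPINE2 encodes protease nexin-1, an inhibitor of uPA, tPA and thrombin at the cell surface (ENSG00000135919.14, chromosome 2, 223975045 to 224039318, minus strand). It was the member whose lines stood farthest apart, and CRISPR Control was the line that departed most from WT. The normalised counts were 90.5, 86.4 and 88.6 in WT, 409, 389 and 418 in CRISPR Control, 35.7, 33.8 and 33.6 in KO 1 and 96.1, 86.8 and 91.8 in KO 2. Replicates were close together within each line, and the highest line mean was 11.8-fold the lowest. CRISPR Control lay above WT by 2.18 on the log2 scale, 4.54-fold (SE 0.14, limma adjusted p 1.73e-10). KO 1 lay below WT, with a log2 difference of -1.34 (SE 0.14, limma adjusted p 3.55e-07). KO 2 differed from WT by 0.05 (95% interval -0.24 to 0.34, limma adjusted p 0.788). KO 2 was above KO 1 by 1.39 (SE 0.14, limma adjusted p 2.33e-07).

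The mean of the deficient lines was below that of the competent lines in SERPINE2 by -1.74 (SE 0.10, limma adjusted p 1.31e-11). The KO 2 libraries overlapped those of WT, and the pooled value covers lines that differed within each pair. Its SE and p-value rest on the spread of libraries within lines, not on the spread between lines. Of 6 tested genes within 1 Mb of SERPINE2, 5 were higher and 0 lower in CRISPR Control than in WT. Their median log2 fold change was 0.51, beside 53.4% of all genes called. KO 1 had 0 of the 6 higher and 3 lower, with a median of -0.19, beside 35.5% of all genes. KO 2 had 2 higher and 3 lower, with a median of -0.065, beside 55%. The calls among neighbours of other members in CRISPR Control against WT stand beside the same 53.4% of all genes. Those of ANXA2 gave 5 higher and 0 lower of 8. Those of ENO1 gave 1 higher and 10 lower of 20, and those of PLAT 2 higher and 14 lower of 20. Near S100A10 0 of 34 were higher and 10 lower, whereas near PLAUR 6 of 35 were higher and 4 lower. The share called was thus above that of all genes near PLAT, close to it near ANXA2 and ENO1, and below it near S100A10 and PLAUR.

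SERPINB2, the gene of plasminogen activator inhibitor type 2 (ENSG00000197632.9, chromosome 18, 63871692 to 63903888, plus strand), was at or near 0 in every line, as given above. SERPINB8 (ENSG00000166401.15) lies downstream of it on the same strand from 63970029 to 64019779. It encodes a mostly intracellular serpin that inhibits furin-like proteases in vitro, and it was transcribed. Its normalised counts were 17.0, 44.5 and 29.5 in WT, 37.1, 23.7 and 17.6 in CRISPR Control, 86.4, 115 and 98.1 in KO 1 and 236, 227 and 212 in KO 2. Both competent lines overlapped, all KO 1 libraries lay above them, and all KO 2 libraries lay above KO 1. The 3 WT libraries together held 95 reads of SERPINB8 and the 3 KO 2 libraries 754.

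Against WT SERPINB8 was higher by 1.78 on the log2 scale in KO 1, 3.42-fold (SE 0.29, limma adjusted p 8.35e-05), and by 2.95 in KO 2, 7.72-fold (SE 0.29, limma adjusted p 7.25e-08). CRISPR Control differed from WT by -0.17 (95% interval -0.77 to 0.43, limma adjusted p 0.644). KO 2 was above KO 1 by 1.17 (SE 0.29, limma adjusted p 0.0032). HMSD, a protein-coding gene on the same strand, shares 370 exon bases with SERPINB8, and reads there cannot be assigned to either gene alone. HMSD had line means of 11.4 in WT and 26.0 in CRISPR Control, next to 32.2 in KO 1 and 55.4 in KO 2. It was higher than WT in CRISPR Control also, by 1.24 on the log2 scale (SE 0.32, limma adjusted p 0.00308), where SERPINB8 was not. Its part in the counts of SERPINB8 was not tested. None of the 8 other serpin genes listed from this chromosome band reached a mean of 10 normalised counts. Of 6 tested genes within 1 Mb of SERPINB8, the overlapping HMSD among them, 3 were higher and 0 lower in KO 1 than in WT. For KO 2 there were 5 higher and 1 lower, and for CRISPR Control 1 higher and 1 lower. Of all tested genes 35.5% differed from WT in KO 1, 55% in KO 2 and 53.4% in CRISPR Control.

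**Figure D3:**
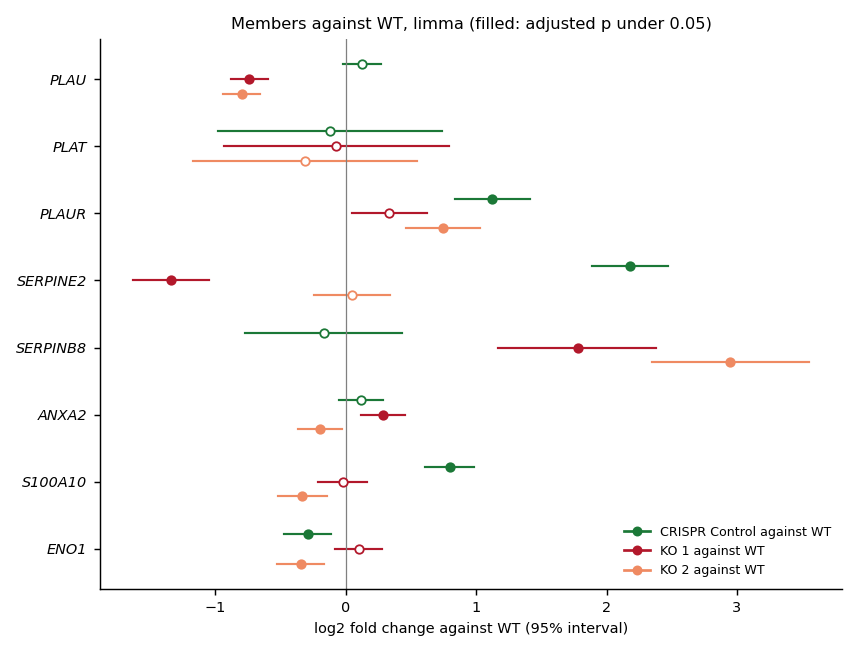
Log2 fold change on the log2(normalised count + 1) scale against WT, with its 95% interval, of the 8 tested members in CRISPR Control, KO 1 and KO 2 (limma, n = 3 libraries per line). Filled points had an adjusted p under 0.05: PLAU and SERPINB8 are filled in both KO lines and open in CRISPR Control, and SERPINE2 has filled points at 2.18 in CRISPR Control and -1.34 in KO 1.

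S100A10, the p11 light chain of the annexin A2 heterotetramer (ENSG00000197747.9, chromosome 1, 151982915 to 151993859, minus strand), was highest in CRISPR Control. The normalised counts were 10238, 10444 and 10813 in WT, 16136, 21386 and 17535 in CRISPR Control, 9462, 11173 and 10395 in KO 1 and 8255, 8831 and 7939 in KO 2. Libraries of CRISPR Control lay above and those of KO 2 below those of every other line, while KO 1 spanned WT. Against WT the log2 fold change was 0.80 in CRISPR Control (SE 0.09, limma adjusted p 5.85e-07), -0.33 in KO 2 (SE 0.09, limma adjusted p 0.00428) and -0.02 in KO 1 (95% interval -0.21 to 0.16, limma adjusted p 0.863). The pooled difference of deficient from competent lines was -0.58 (limma adjusted p 2.06e-07), with KO 1 close to WT and CRISPR Control high. The lower level of KO 2 against KO 1, by -0.31 (limma adjusted p 0.0108), did not pass the threshold with equal library totals (adjusted p 0.0799), quantile normalization (adjusted p 0.0974) or without KO 1 replicate 2 (adjusted p 0.0676).

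ANXA2, the gene of annexin A2 (ENSG00000182718.18, chromosome 15, 60347134 to 60402883, minus strand), moved little. Its normalised counts were 75410, 69230 and 66787 in WT, 69639, 81149 and 78584 in CRISPR Control, 86445, 87825 and 83161 in KO 1 and 60240, 59778 and 64172 in KO 2. KO 1 lay above and KO 2 below the libraries of the other lines. KO 1 was above WT by 0.29 on the log2 scale (SE 0.08, limma adjusted p 0.00885), a call that was lost without WT replicate 3 (limma adjusted p 0.0564). KO 2 was below KO 1 by -0.48 (SE 0.08, limma adjusted p 9.18e-05). KO 2 against WT gave -0.20 (limma adjusted p 0.0428), a call that 11 of 21 alternatives lost, with values from -0.24 to -0.10 over all of them. Among them were the fits without WT replicate 1 (adjusted p 0.177) or 2 (adjusted p 0.0725), without any single KO 1 library (adjusted p 0.0548 to 0.0556, the difference itself unchanged) and without KO 2 replicate 1 (adjusted p 0.11) or 2 (adjusted p 0.123). CRISPR Control differed from WT by 0.12 (limma adjusted p 0.232), and without CRISPR Control replicate 1 by 0.18 (limma adjusted p 0.047). KO 1 against CRISPR Control gave 0.17 (limma adjusted p 0.0722), and it was called in 5 alternatives: without CRISPR Control replicate 2 (0.21, limma adjusted p 0.0275), with equal library totals (limma adjusted p 0.0286), with quantile normalization (limma adjusted p 0.0174), in edgeR (adjusted p 0.0355) and in DESeq2 (adjusted p 0.0473).

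Copies of ANXA2 can share its reads. ANXA2P2 had line means of 620 in WT and 801 in CRISPR Control, next to 784 in KO 1 and 533 in KO 2, far below ANXA2 in each line, and ANXA2P1 had line means of 8.33 to 16.0. ANXA2P3 and ENO1P1 had 0 reads in the 12 libraries.

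ENO1, the gene of enolase 1 (ENSG00000074800.16, chromosome 1, 8861000 to 8879190, minus strand), was lower in KO 2 and CRISPR Control than in WT. The normalised counts were 106131, 92512 and 97123 in WT, 72879, 79605 and 89846 in CRISPR Control, 101870, 108851 and 105809 in KO 1 and 74782, 79456 and 78082 in KO 2. WT and KO 1 overlapped, as did CRISPR Control and KO 2, and every library of the former pair lay above those of the latter. Against WT the log2 fold change was -0.35 in KO 2 (SE 0.09, limma adjusted p 0.00219), -0.29 in CRISPR Control (SE 0.09, limma adjusted p 0.00817) and 0.10 in KO 1 (95% interval -0.08 to 0.28, limma adjusted p 0.397). Without WT replicate 1 the CRISPR Control difference was -0.24 (limma adjusted p 0.0505). The related enolases followed other orders: ENO2, the neuronal form, was higher than WT in KO 2 (0.30, limma adjusted p 0.00299) and lower in CRISPR Control (-0.34, limma adjusted p 0.000998) and in KO 1 (-0.26, limma adjusted p 0.011), the last call being lost without KO 1 replicate 3 (limma adjusted p 0.0515). ENO3, the muscle form, was higher in KO 2 (0.47, limma adjusted p 0.000631) and lower in CRISPR Control (-0.70, limma adjusted p 1.2e-05).

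Ratios within a library were described for genes whose products bind each other, per kilobase and without a test. The ratio of PLAU to PLAUR was 103 ± 8.68 in WT and 51.5 ± 7.14 in CRISPR Control, next to 48.7 ± 2.45 in KO 1 and 35.1 ± 1.08 in KO 2 (SD of 3 libraries, n = 3). All lines carried many more PLAU than PLAUR transcripts, and WT was above the other lines in every library. The ratio of PLAU to SERPINE2 was 419 ± 22.4 in WT and 99.8 ± 7.53 in CRISPR Control, next to 646 ± 31.3 in KO 1 and 233 ± 11.4 in KO 2, and no 2 lines overlapped. That of PLAT to SERPINE2 was 0.148 ± 0.044 in WT and 0.030 ± 0.013 in CRISPR Control, next to 0.352 ± 0.040 in KO 1 and 0.111 ± 0.026 in KO 2. S100A10 to ANXA2 stood at 1.71 ± 0.15 in WT and 2.74 ± 0.24 in CRISPR Control, next to 1.38 ± 0.11 in KO 1 and 1.56 ± 0.14 in KO 2. CRISPR Control thus had the highest ratio of this pair, and its libraries did not overlap those of any other line. The size of these ratios rests on the summed exon lengths, since undivided counts of ANXA2 were above those of S100A10 in every line.

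PLG, the gene of plasminogen, was near the detection limit, with 20 reads over the WT libraries, 4 over CRISPR Control, 0 over KO 1 and 4 over KO 2. It was not tested, and transcription of the zymogen beyond this level was not detected.

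Besides the members, 33 genes of the pathway were listed, of which 25 could be tested. KO 1 and WT differed in 14, of which 13 were higher in KO 1 and 1 lower, a share of 56% beside 35.5% of all tested genes. KO 2 and WT differed in 17, of which 13 were higher in KO 2 and 4 lower, 68% beside 55% of all genes. CRISPR Control differed from WT in 18, 9 in each direction, 72% beside 53.4% of all genes. Deficient and competent lines differed in 20, 15 higher and 5 lower, 80% beside 65.9% of all genes. The median log2 fold change of the 25 relative to WT was 0.32 in KO 1, 0.24 in KO 2 and 0.04 in CRISPR Control. The list was written with earlier results of these libraries known, so its direction is not independent evidence. Calls in both KO lines with the same sign and none in CRISPR Control were found for 4 of the 25 (10.2% of all genes), namely ITGAM, VTN and ITGAV, which were higher, and S100A4, which was lower. ITGAV, the gene of integrin alpha V, met this narrowly, with 0.54 in KO 1 (limma adjusted p 0.000215), 0.24 in KO 2 (limma adjusted p 0.0376) and 0.22 in CRISPR Control (limma adjusted p 0.0628), and its deficient and competent libraries overlapped.

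Of 7 inhibitors listed, 3 were tested, and 2 were higher and 0 lower than WT in KO 1 (SERPINI1, SPINT2), as were 2 in KO 2 (SERPINI1, SPINT1) and the same pair in CRISPR Control, where 35.5%, 55% and 53.4% of all genes were called in this order of lines. SERPINI1, the gene of neuroserpin, an inhibitor of tPA, was higher than WT by 1.35 in KO 1 (limma adjusted p 7.25e-07), by 2.20 in KO 2 (limma adjusted p 3.83e-10) and by 1.25 in CRISPR Control (limma adjusted p 9.17e-07). SPINT1, the gene of an inhibitor of matriptase, was higher by 1.54 in CRISPR Control (limma adjusted p 8.5e-09) and 0.71 in KO 2 (limma adjusted p 0.000111).

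Of 7 genes for plasminogen and the proteases that activate pro-uPA, 4 were tested, with 2 higher and 0 lower in either KO line (50%, beside 35.5% of all genes in KO 1 and 55% in KO 2). In CRISPR Control all 4 were called, 2 higher and 2 lower, beside 53.4% of all genes. CTSB, the gene of cathepsin B, was higher than WT in KO 1 (0.81, limma adjusted p 1.01e-08), also in KO 2 (0.38, limma adjusted p 5.94e-05) and lower in CRISPR Control (-0.68, limma adjusted p 4.67e-08). ST14, the gene of matriptase, was higher in KO 1 (0.58, limma adjusted p 0.00519), in KO 2 (2.00, limma adjusted p 2.15e-09) and likewise in CRISPR Control (1.68, limma adjusted p 2.54e-08). F12, the gene of coagulation factor XII, was lower in CRISPR Control (-1.01, limma adjusted p 1.85e-06).

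The 5 other plasminogen binding proteins were all tested. KO 1 had 1 higher and 1 lower than WT (40%, beside 35.5% of all genes), and KO 2 had 1 higher and 3 lower (80%, beside 55%). CRISPR Control had 1 higher and 1 lower (40%, beside 53.4%). S100A4, the gene of a calcium-binding protein that binds annexin A2, had normalised counts of 2237 to 2522 in WT, 2032 to 2800 in CRISPR Control, 555 to 654 in KO 1 and 326 to 455 in KO 2. Its KO libraries lay far below the competent ones, at -1.96 in KO 1 (SE 0.12, limma adjusted p 5.03e-10) and -2.66 in KO 2 (SE 0.12, limma adjusted p 2.74e-12) against WT. ITGAM, the gene of integrin alpha M, was higher at a low level, by 0.97 in KO 1 (limma adjusted p 0.00629) and 2.24 in KO 2 (limma adjusted p 6.66e-07). KRT8, a keratin that binds plasminogen at the surface of carcinoma cells, was lower by -1.71 in CRISPR Control (limma adjusted p 1.25e-11) and by -0.43 in KO 2 (limma adjusted p 0.000492), a call lost under quantile normalization (-0.12, limma adjusted p 0.27).

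Of 14 clearance receptors and partners of the urokinase receptor, 13 were tested, with 8 higher and 0 lower than WT in KO 1 (61.5%, beside 35.5% of all genes) and 8 higher and 1 lower in KO 2 (69.2%, beside 55%). CRISPR Control had 4 higher and 6 lower (76.9%, beside 53.4%). VTN, the gene of vitronectin, a matrix ligand of the urokinase receptor, had line means of 13.8 in WT and 14.3 in CRISPR Control, next to 42.0 in KO 1 and 201.3 in KO 2. It was higher than WT by 1.68 in KO 1 (SE 0.33, limma adjusted p 0.0005) and 3.92 in KO 2 (SE 0.33, limma adjusted p 8.16e-09). ITGB3, the gene of integrin beta 3, which binds vitronectin, was higher by 1.12 in KO 1 (limma adjusted p 2.85e-07) and 0.41 in KO 2 (limma adjusted p 0.00509) and lower by -1.47 in CRISPR Control (limma adjusted p 3.15e-09). SORL1, a receptor that takes up uPA and its complexes, was lower by -1.79 in KO 2 (limma adjusted p 7.54e-10), higher by 1.55 in CRISPR Control (limma adjusted p 5.82e-09) and differed by 0.10 in KO 1 (limma adjusted p 0.571).

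**Figure D4:**
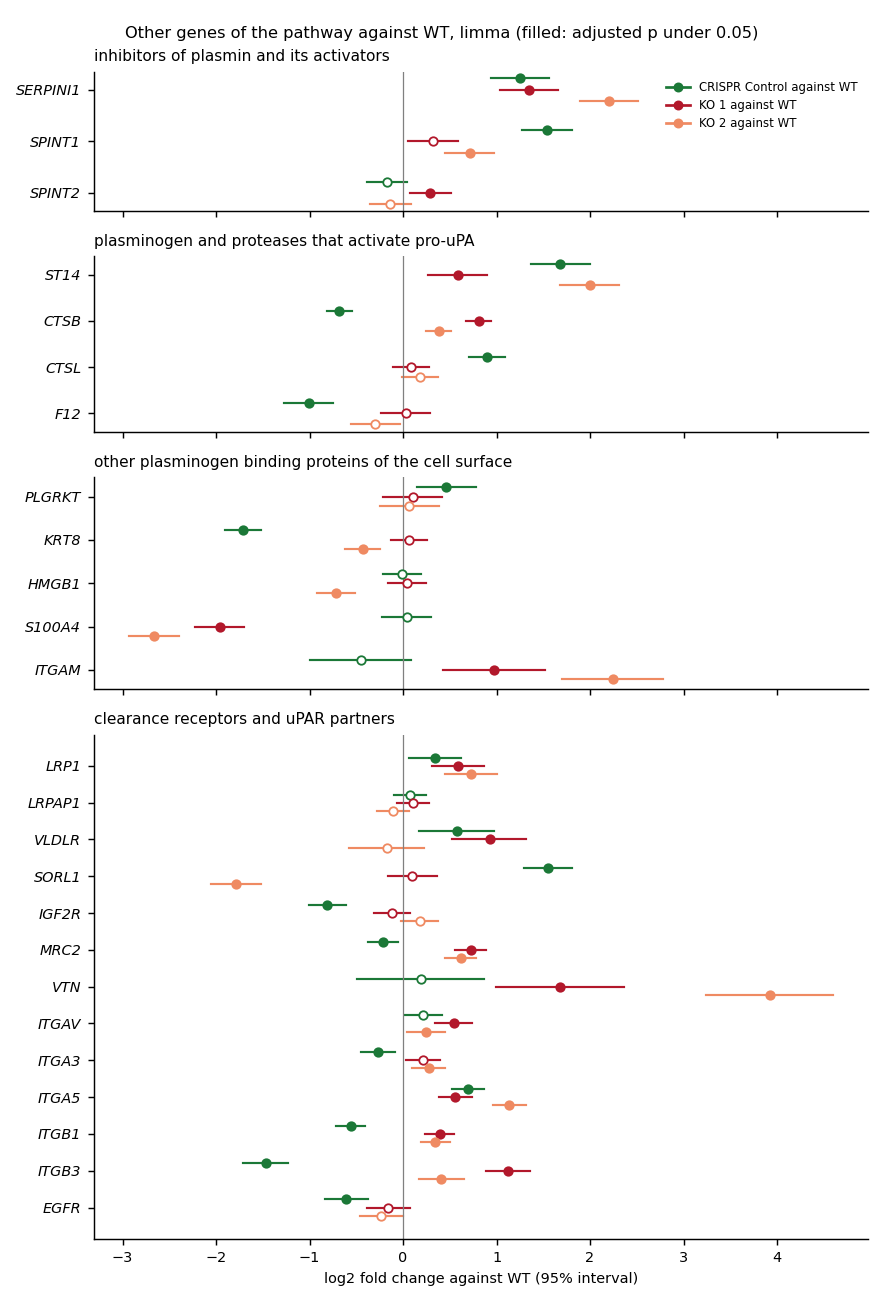
Log2 fold change on the log2(normalised count + 1) scale against WT, with its 95% interval, of the 25 tested genes of the pathway other than the members, in 4 groups by role (limma, n = 3 libraries per line, filled where the adjusted p was under 0.05). S100A4 lies at -1.96 in KO 1 and -2.66 in KO 2 and VTN at 1.68 and 3.92, while KRT8, ITGB3 and CTSB fall below 0 in CRISPR Control.

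For members whose line means spanned at least 2-fold, the genes with the most like pattern were sought among 11642 genes with a mean of at least 100, by Pearson r of the log2 values over the 12 libraries. These libraries fall into 4 lines, so r describes mostly how the line means differ. The order of close lines need not be the same, and no test was made. For SERPINE2 they were NTN4 (r = 0.998), which had line means of 861 in WT and 4234 in CRISPR Control, next to 348 in KO 1 and 884 in KO 2, PCDH9 (r = 0.995) and TXNRD1 (r = 0.992). For SERPINB8 they were PJA2 (r = 0.990), RBPJ (r = 0.985) and CHIC1 (r = 0.981). For S100A10 they were RPL15 (r = 0.990), RPS24 (r = 0.988) and BTF3 (r = 0.981), of which the first pair encode ribosomal proteins. For PLAUR they were NEU1 (r = 0.957), SPINT1 (r = 0.956) and PRR13 (r = 0.955).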

How the data were processed

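RNA of 12 MIA PaCa-2 libraries, 3 for each of 4 lines, was sequenced as read pairs. Groups and replicate numbers came from the sample titles. The authors trimmed reads with Cutadapt, mapped them to GRCh38 by STAR, assigned them to genes by featureCounts and scaled the gene totals by DESeq2 size factors. The unit of the deposited table is thus a signal of scaled read counts, and a shift shared by most genes is removed by the scaling. The strand setting and annotation release were not given in the sources used here. Whole reads were recovered from the step between values for all positive values within 0.01 reads. The table also held 1 unnamed line, left out, and 4 columns that were not used, which hold the authors' means per line.

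The test was limma (version 3.58.1, R 4.3.3; lmFit, contrasts.fit, eBayes with trend) on log2(normalised count + 1) of 15987 genes with a mean of at least 10, with 4 line means fitted to the 12 libraries. It was two-sided, with Benjamini-Hochberg adjustment over all tested genes and a threshold of 0.05. The pseudocount understates changes of low genes. edgeR (4.0.16) and DESeq2 (1.42.0) on recovered reads were alternatives, with pseudocounts of 0.5 and 10, no filter, a minimum mean of 50, equal library totals, quantile normalization, a replicate block and leaving out each library. Scripts were checked on simulated data.

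The members, lists, tests and named-gene rule were chosen with earlier results of these data known. Named were the members, PLG, TIMP1, copies and paralogs, the 3 largest changes past the threshold of each pathway group between deficient and competent lines, and the 3 largest of the pathway list for KO 2 against KO 1 and for CRISPR Control against WT. HMSD and C10orf55 were named for overlapping exons, and ITGAV, SPINT2, PDGFRB, KRT18, KRT19, EPCAM and VIM after their values were seen. Exon lengths, coordinates and overlaps came from GENCODE 44 on GRCh38, which matched 99.1% of gene identifiers and need not be the authors' release. NF-kB and ISRE strings were also searched in the promoters at first and are not shown. A listed gene of the pathway is not reported here, and counts of the lists leave it out.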

Additional observations from a re-analysis of the deposited data

Results flagged for a closer look

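The changes against WT differed between the KO lines for several members, by the limma comparison of KO 2 with KO 1 with an adjusted p under 0.05. The log2 difference of KO 2 from KO 1 was 1.39 for SERPINE2, 1.17 for SERPINB8, 0.41 for PLAUR, -0.48 for ANXA2, -0.45 for ENO1 and -0.31 for S100A10. The copy ANXA2P2 gave -0.56, in the direction of ANXA2. The related enolases ENO2 and ENO3 gave 0.56 and 0.55, in the direction opposite to ENO1.

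Among the other genes of the pathway the differences were 2.24 for VTN, 1.41 for ST14, 1.26 for ITGAM, 0.85 for SERPINI1 and 0.39 for SPINT1, all higher in KO 2. They were -1.89 for SORL1, -0.71 for ITGB3, -0.70 for S100A4, -0.49 for KRT8, -0.43 for CTSB and -0.32 for F12, all lower in KO 2. VTN, ITGAM and SERPINI1 rose and S100A4 fell in both KO lines against WT, so for these the lines differed in size, whereas SERPINE2, SORL1 and KRT8 differed from WT in 1 KO line. Each KO line is a single clone, and a difference between guides and a difference between clones cannot be told apart. The calls of F12 and SPINT1 were lost in limma when 1 library was left out: F12 without any KO 1 library (adjusted p 0.0747 to 0.12), KO 2 replicate 1 (0.2) or 2 (0.0875) or any WT library (0.059 to 0.0629), and SPINT1 without KO 1 replicate 2 (0.1) or 3 (0.0551) or KO 2 replicate 3 (0.107). Groups of 3 libraries are too small for a check of single outlying samples.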

How the results depend on the processing

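Over 21 alternatives, 30 of the 36 member comparisons past the threshold were so under each alternative that gave a value, and no called member comparison changed sign. The 6 others were ANXA2 for KO 1 and KO 2 against WT, PLAUR for KO 2 against CRISPR Control and against KO 1, S100A10 for KO 2 against KO 1 and ENO1 for CRISPR Control against WT, with values given above, and the cause was not tested. Of the 20 comparisons not past the threshold, 16 stayed so and 13 took the other sign somewhere. PLAT had no value at a minimum mean of 50. No count of calls moved by over 1.5 times. Members past the threshold ran from 3 to 5 for KO 1 against WT and from 5 to 6 for KO 2 against WT. The moves that reached 1.5 times were 4 to 6 members for CRISPR Control against WT (4 in the main test) and for KO 2 against KO 1 (6 in the main test). With equal library totals the median of all genes in KO 2 against CRISPR Control was 0.11, and the share of higher calls became 59.9% from 49.3% for KO 2 against WT and 65.5% from 47.4% for KO 2 against KO 1.

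Correlations of same-numbered deviations from the line means were low: 2 of 18 were above 0.1 (range -0.13 to 0.16). Both were between CRISPR Control and KO 2, at 0.16 for replicate 1 and 0.145 for replicate 3. Whether some samples were paired by number is not settled by these values. With a replicate block, 5 members differed between KO 2 and WT in place of 6, ANXA2 being lost (limma adjusted p 0.067), and 4 still differed between KO 1 and WT. Depth limited what could be shown for PLAT, PLG and SERPINB2.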
